A study of Mus musculus with 4 samples.

Results

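The genes described here encode the subunits, activators, inhibitor and assembly factors of the proteasome. They are the 50 protein-coding genes, of 55471 in the deposited count table, whose GENCODE M21 symbol begins with Psm, a letter from a to g and a number. One of them, Psmc3ip, fits the spelling and encodes a meiotic recombination factor, not a proteasome protein. The 50 genes were measured by poly(A) RNA sequencing of CD11b-positive cells, which were pulled from mouse brain with magnetic beads. All 4 libraries form 1 group. The mice, 10 to 13 weeks old, had taken PLX5622, which inhibits the receptor kinase CSF1R on which microglia depend, for 7 days. They then had 10 days without it, 17 days in all. Genotype, strain, sex and any pooling of animals were not given in the sources used here. CD11b is also carried by other myeloid cells than microglia. An untreated group was not analysed here, so levels and differences between libraries are described, and nothing is said of what the drug did. The labels do not say that the libraries came from separate animals, so p-values cover only how far these 4 samples spread, which may be technical.

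The proteasome degrades proteins that carry ubiquitin chains. Its core particle is a stack of rings of alpha and beta subunits, and the proteolytic sites sit on the beta subunits encoded by Psmb5, Psmb6 and Psmb7. Interferons induce replacement subunits, encoded by Psmb8, Psmb9 and Psmb10, which take the place of Psmb5, Psmb6 and Psmb7 in newly assembled particles called immunoproteasomes. Interferons also induce Psme1 and Psme2, the chains of the PA28 activator. Particles with these subunits change which peptides are cut for display on MHC class I, and microglia, as resident immune cells of the brain, are known to express them. The 5 genes Psmb8, Psmb9, Psmb10, Psme1 and Psme2 are called inducible below.

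Library totals were 24412573, 23036202, 23585261 and 24487418 counts for libraries 1 to 4. All 10 microglial markers checked were detected in every library. Their summed levels were 39710, 34767, 38858 and 31974 CPM in libraries 1 to 4, so libraries 1 and 3 were the higher. CPM are counts scaled to a library of 1000000, with library sizes adjusted by TMM, the trimmed mean of M-values. Markers of other cells were present as well. Their summed levels in libraries 1 to 4 were 772, 791, 189 and 680 CPM for 7 endothelial genes, 606, 575, 87.2 and 385 CPM for 6 pericyte and smooth muscle genes, and 15992, 15940, 3318 and 22241 CPM for 6 choroid plexus genes. For 6 border-associated macrophage genes they were 636, 311, 293 and 257 CPM, and for 5 erythroid genes 365, 174, 32.4 and 65.8 CPM. Library 3 was thus lowest in vascular, choroid plexus and erythroid markers, and library 1 was highest in border macrophage and erythroid markers. Library 1 was also the highest for 5 oligodendrocyte genes (721, 405, 358 and 510 CPM), 6 neutrophil genes (65.5, 64.4, 28.0 and 15.1 CPM), 7 T and NK cell genes (20.9, 14.6, 8.41 and 8.10 CPM), 4 B cell genes (21.1, 13.2, 10.7 and 10.1 CPM), the pericyte list and the microglial list itself. Of the markers of these other cells, Cd3d alone was at 3 counts or fewer in all libraries. In bulk RNA, fewer cells of a type and less RNA per cell cannot be told apart. The part of these cells in the differences below was not tested.

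The upstream sequences of some inducible and constitutive catalytic genes are given first, without those of Psmb10, Psme2 and Psmb7. RefSeq windows on GRCm38.p6 were found for 42 of the 50 genes. Each window runs from 250 bases before the annotated start to 50 after it, and it is printed here as far as 20 bases after. Psmb9 (chr17:34187311-34187580, minus strand), Psmb8 (chr17:34197945-34198214, plus strand) and Psme1 (chr14:55578244-55578513, plus strand) stand for the inducible genes. Psmb5 (chr14:54617976-54618245, minus strand) and Psmb6 (chr11:70525107-70525376, plus strand) stand for the constitutive catalytic subunits. Capitals mark matches to the letters of an interferon-stimulated response element type (GAAA, any 2 bases, GAAA), a gamma-activated site type (TTCNNNGAA) or an antioxidant response element type (TGACNNNGC).
Psmb9: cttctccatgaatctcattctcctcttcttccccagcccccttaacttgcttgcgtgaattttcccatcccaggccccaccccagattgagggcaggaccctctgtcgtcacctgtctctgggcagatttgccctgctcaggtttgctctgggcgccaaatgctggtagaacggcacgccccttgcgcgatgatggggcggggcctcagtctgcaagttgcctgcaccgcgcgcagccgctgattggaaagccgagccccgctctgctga
Psmb8: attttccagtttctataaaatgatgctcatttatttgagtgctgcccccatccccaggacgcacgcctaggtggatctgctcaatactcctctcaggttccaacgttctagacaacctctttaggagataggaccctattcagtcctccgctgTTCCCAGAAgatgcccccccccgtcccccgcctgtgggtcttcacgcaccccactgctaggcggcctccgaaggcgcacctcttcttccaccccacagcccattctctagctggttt
Psme1: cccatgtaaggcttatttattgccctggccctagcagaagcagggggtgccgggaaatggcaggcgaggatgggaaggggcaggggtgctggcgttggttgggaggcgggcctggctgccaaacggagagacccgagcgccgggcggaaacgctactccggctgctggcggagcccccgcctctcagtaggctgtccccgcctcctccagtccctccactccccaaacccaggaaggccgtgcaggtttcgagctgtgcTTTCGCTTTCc
Psmb5: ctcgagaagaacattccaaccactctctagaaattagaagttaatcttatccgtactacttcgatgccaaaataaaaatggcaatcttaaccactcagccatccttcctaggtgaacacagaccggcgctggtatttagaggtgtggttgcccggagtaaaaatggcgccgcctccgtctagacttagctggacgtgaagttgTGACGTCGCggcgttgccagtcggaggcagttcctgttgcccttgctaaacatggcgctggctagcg
Psmb6: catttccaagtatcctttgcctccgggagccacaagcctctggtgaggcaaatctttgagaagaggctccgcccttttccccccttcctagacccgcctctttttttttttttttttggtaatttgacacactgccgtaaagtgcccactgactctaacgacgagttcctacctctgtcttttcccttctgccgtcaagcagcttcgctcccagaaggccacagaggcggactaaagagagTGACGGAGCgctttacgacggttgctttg

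Matches were searched on both strands in the full windows of 300 bases, and no match says only that the letters are not in that window. Members were counted by gene, with a match in any of their windows (45 windows for 42 genes). All genes were counted by window, so the shares are not quite alike in unit. The response element letters were found in 1 of the 5 inducible genes (Psme1, 10 bases after the start, on the minus strand) and in 4 of 37 other genes, against 3.44% of 32851 windows of all genes. The gamma-activated letters were found in 1 of 5 (Psmb8, 97 bases before the start) and 2 of 37, against 8.30% of all windows. The antioxidant letters were found in 0 of 5 and 6 of 37, Psmb5 and Psmb6 among them, against 12.4% of all windows. Psmb9 held none of the 3, and its window overlaps that of Tap1, which is transcribed away from it, over 275 bases. On GRCm38 the genes Psmb9, Tap1, Psmb8 and Tap2 lie side by side within 34.3 kb of the MHC region of chromosome 17 (34181987 to 34216321). Psme1 and Psme2 lie 5.91 kb apart on chromosome 14, and Psmb5 (54614119 to 54618022) lies 3.41 kb from Psmb11 on the same chromosome. Psmb10 lies on chromosome 8 (105935735 to 105938444), Psmb6 on chromosome 11 (70525367 to 70527858) and Psmb7 on chromosome 2 (38588036 to 38644087).

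Nearly the whole set was expressed. In every library, 49 of 50 genes reached 1 CPM and entered the test of spread, and 47 reached 5 CPM. Together the genes held 3396, 2411, 2698 and 2427 CPM in libraries 1 to 4, or 2733 ± 461 (SD, n = 4). Library 1 was the highest of the 4 in this sum. The median gene stood at 56.0 CPM, against 22.2 CPM over the 14112 genes tested.

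**Figure D1:**
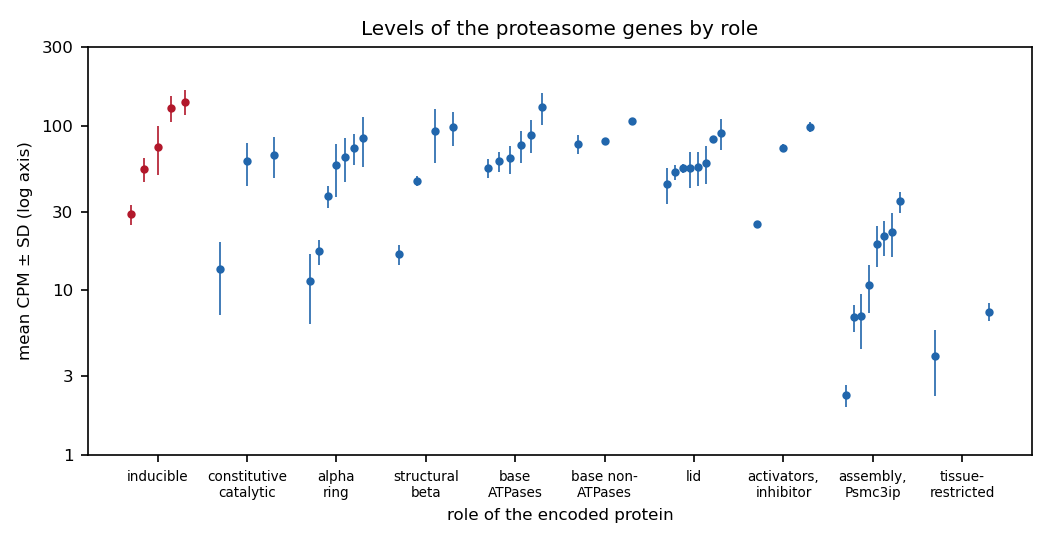
Mean CPM over 4 libraries (points, log axis) with the SD (bars) for the 49 tested genes, grouped by the role of the encoded protein and ordered by level within each role. Psme1 and Psmb8 of the inducible genes lie above every other gene shown except Psmc3, which lies just above Psmb8, and the assembly factors lie below the median of the set.

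Among the inducible genes the PA28 alpha chain was the most abundant. Psme1 (ENSMUSG00000022216) had 146, 115, 169 and 129 CPM in libraries 1 to 4 and averaged 140 ± 23.6 CPM (SD, n = 4), the highest mean of the 50 genes. Psmb8 (ENSMUSG00000024338), the replacement for Psmb5, had 142, 106, 154 and 110 CPM. In both genes libraries 1 and 3 were high and libraries 2 and 4 were low, with library 3 at the top.

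Psmb9 (ENSMUSG00000096727), the replacement for Psmb6, had 55.7, 45.2, 66.3 and 50.2 CPM. Psme2 (ENSMUSG00000079197), the PA28 beta chain, had 32.4, 25.1, 32.6 and 25.8 CPM. Psmb10 (ENSMUSG00000031897), the replacement for Psmb7, had 109, 57.7, 74.4 and 56.6 CPM. Psmb9 and Psme2 followed the order of Psmb8 at lower levels, with Psme2 nearly even between libraries 1 and 3. Psmb10 differed from the other inducible genes in being highest in library 1. Only 40.7% of the 50-base words of the Psme2 transcript occur in no other annotated gene, so its level is uncertain, and 14.7% of the exonic bases of Psmb8 lie opposite Gm20496, which is annotated on the other strand.

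The constitutive catalytic genes were high in library 1 and even in the other libraries. Psmb6 (ENSMUSG00000018286) had 94.8, 56.4, 60.2 and 55.3 CPM in libraries 1 to 4. Psmb7 (ENSMUSG00000026750) had 86.9, 49.0, 56.3 and 51.2 CPM. Psmb5 (ENSMUSG00000022193) had 22.9, 10.1, 10.6 and 10.0 CPM. For each of the 3 genes, library 1 lay 1.65 to 2.24 times above the mean of the others, while libraries 2, 3 and 4 lay close together. Psmb5 was the lowest of these catalytic genes, and 42.9% of its 50-base words were unique. Processed pseudogenes copy it, and 12.1% of its exonic bases overlap Mir686 on the same strand. Mir686 had 0 counts in every library. The copies Gm3375 and Psmb5-ps had at most 3 counts in any library. How multi-mapping reads were counted was not given in the sources used here, so the level of Psmb5 is a lower estimate if they were dropped.

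**Figure D2:**
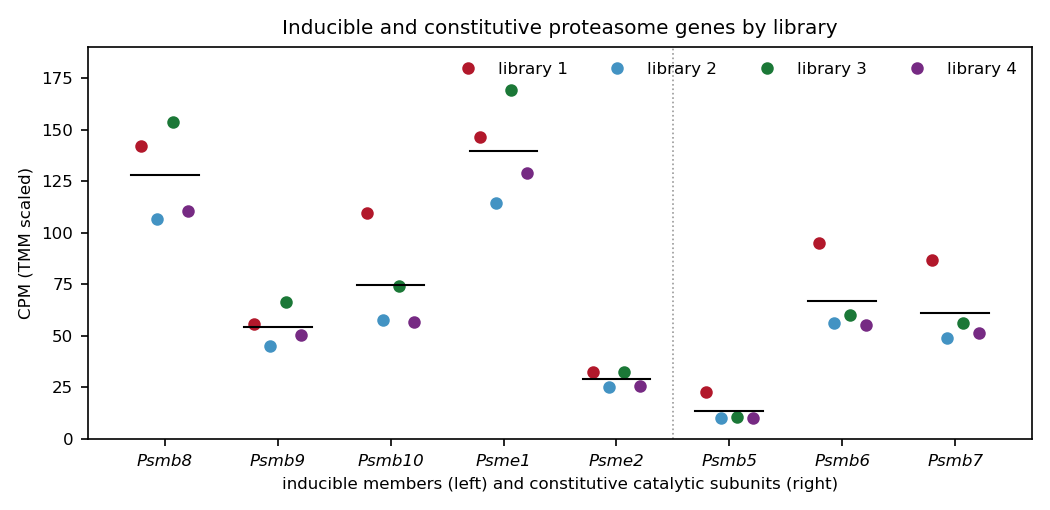
CPM in each of the 4 libraries (coloured points) and their mean (black lines) for the 5 inducible genes, left of the dotted line, and the 3 constitutive catalytic genes, right of it. Library 3 (green) is at the top for Psmb8, Psmb9, Psme1 and Psme2, and library 1 (red) is at the top for Psmb10 and all 3 constitutive genes.

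Which of each pair of alternative subunits was the more abundant was asked per length of exon. Per kilobase of exonic sequence, Psmb8 lay 2.59-fold above Psmb5, with ratios of 1.62, 2.68, 3.70 and 2.81 in libraries 1 to 4. Psmb9 lay at 0.424 of the level of Psmb6, with ratios of 0.302, 0.411, 0.563 and 0.465. Psmb10 lay 2.43-fold above Psmb7, with ratios of 2.52, 2.36, 2.64 and 2.21. Each pair had the same sign in 4 of 4 libraries. A two-sided exact permutation test that flips the signs of the 4 libraries gave p = 0.125 for each pair, the smallest p this design allows, and 0.125 after Benjamini-Hochberg adjustment over the 3 pairs, so none could pass 0.05.

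The length used sets the size of these ratios. With the length of the principal transcript, a choice made after seeing the data, Psmb10 lay only 1.07-fold above Psmb7, with library 4 below 1 (0.976), and Psmb8 lay 5.38-fold above Psmb5. With the length of the longest transcript, Psmb8 lay 4.60-fold above Psmb5, Psmb9 at 0.278 of Psmb6 and Psmb10 2.63-fold above Psmb7. With no length, Psmb9 lay at 0.830 of Psmb6, with library 3 above 1 (1.10), Psmb8 lay 9.75-fold above Psmb5 and Psmb10 lay 1.21-fold above Psmb7. In a further setting the length of each principal transcript was multiplied by the gene's share of unique words, with the counts unchanged. That share was measured on the longest transcript. This brought Psmb8 to 2.43-fold above Psmb5. Psmb9 lay at 0.490 of the level of Psmb6 with the principal transcript and at 0.481 with the length so reduced.

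Within a pair, the ratio of raw counts can be compared across libraries without any scaling. The ratio of Psmb8 to Psmb5 was 6.20, 10.5, 14.5 and 11.0 in libraries 1 to 4, with 95% exact binomial intervals of 5.67 to 6.79 in library 1 and 12.8 to 16.6 in library 3. The ratio of Psmb9 to Psmb6 was 0.588, 0.801, 1.10 and 0.908, with intervals of 0.549 to 0.629 in library 1 and 1.02 to 1.19 in library 3. The ratio of Psmb10 to Psmb7 was 1.26, 1.18, 1.32 and 1.10. In the first 2 ratios library 1 was at the bottom and library 3 at the top, 2.35-fold and 1.87-fold apart, and their intervals for these libraries did not overlap. The third spanned 1.20-fold, and its intervals for library 1 (1.19 to 1.33) and library 3 (1.23 to 1.42) overlapped. Libraries 1 and 3 were chosen with earlier results of these data known, and they are the extremes of the first 2 ratios. Whether their intervals overlap is thus no test of a difference between libraries. Each interval was made from the counts of a single library and leaves out variation between libraries. It treats reads as separate molecules, which reads without a molecular identifier need not be, so it may be too narrow.

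**Figure D3:**
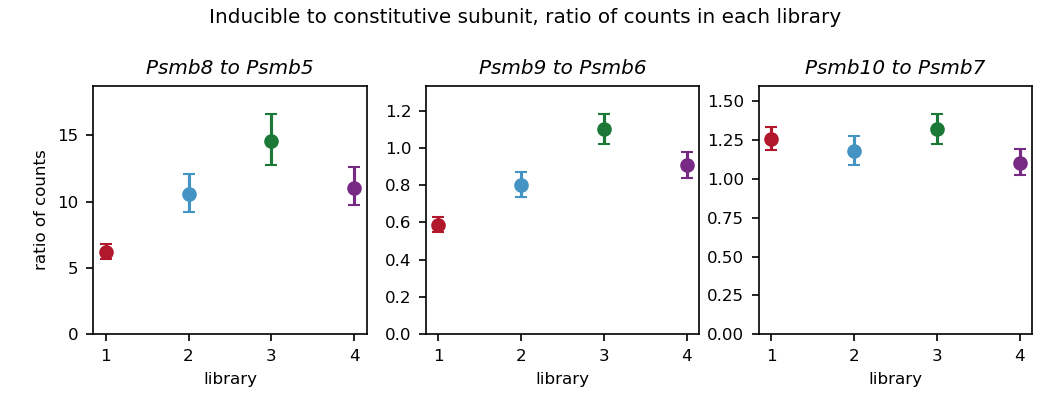
Ratio of the counts of each inducible subunit gene to those of the gene it replaces (points) in libraries 1 to 4, with 95% exact binomial intervals (bars) and axes that start at 0. The ratios of Psmb8 to Psmb5 and of Psmb9 to Psmb6 are lowest in library 1 and highest in library 3, and that of Psmb10 to Psmb7 lies between 1.10 and 1.32.

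The remaining core particle genes formed a base to which the catalytic and activator genes could be set within each library. The alpha ring genes Psma1 to Psma7 and the beta genes without a proteolytic site, Psmb1 to Psmb4, were summed for this purpose. As a percentage of that sum, Psmb8 stood at 17.1, 21.4, 27.0 and 22.1% in libraries 1 to 4. Psme1 stood at 17.6, 23.0, 29.7 and 25.7%, Psmb9 at 6.72, 9.06, 11.6 and 10.0%, and Psme2 at 3.91, 5.04, 5.73 and 5.15%. For these 4 genes library 1 was the lowest and library 3 the highest. Psmb10 stood at 13.2, 11.6, 13.1 and 11.3%. The constitutive genes Psmb5, Psmb6 and Psmb7 summed to 24.7, 23.2, 22.3 and 23.3%, a range of 1.11-fold, and the inducible genes to 58.6, 70.0, 87.1 and 74.2%, a range of 1.49-fold. A low library 1 on this base was common, since the summed genes were themselves high in that library. It held for 4 of 5 inducible genes, 20 of the 33 other members outside the sum and 74.1% of 14101 tested genes. Of the 33, 9 spanned more than the inducible sum, among them Psme4 at 1.90-fold, Psmd1 at 1.80-fold and Psme3 at 1.73-fold, with library 2 or 4 the highest for these 3. Library 1 at the bottom together with library 3 at the top was found in 4 of 5 inducible genes, in 1 of the 33 (Psme2b, a copy of Psme2) and in 13.3% of the tested genes.

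Among the alpha ring genes, Psma1 had 126, 67.7, 77.2 and 66.6 CPM and Psma2 had 87.4, 45.1, 52.3 and 44.3 CPM. Psma6 had 95.1, 61.7, 72.2 and 63.7 CPM. Psma3 was lower, at 21.7, 15.6, 15.8 and 16 CPM, and Psma5 was the lowest, at 18.9, 8.85, 10.5 and 7.34 CPM, with 44.6% of its words unique. All 7 alpha ring genes were highest in library 1, by 1.34 to 2.13 times the mean of the other libraries. Per kilobase of exon they ranged from 4.44 CPM for Psma3 to 59.3 CPM for Psma6, although the particle holds equal numbers of each subunit. Unique words made up 78.0% of the transcript of Psma3 and 100% of that of Psma6, and annotated exons of some genes extend well past their principal transcript. Of the other beta genes, Psmb4 had 143, 74.2, 82.7 and 72.4 CPM and Psmb1 had 130, 77.0, 100.1 and 86.6 CPM. Psmb2 was even, at 50.7, 43.5, 45.4 and 45.3 CPM, and Psmb3 was low, at 18.4, 15.0, 18.5 and 14.1 CPM. Per kilobase Psmb4 was the highest of these beta genes, at 47.7 CPM, and Psmb3 the lowest, at 7.19 CPM.

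The regulatory particle caps the core, binds ubiquitin chains and unfolds substrates. Its ATPase genes Psmc1 to Psmc6 ranged from 55.1 CPM (Psmc1) to 130 CPM (Psmc3), or 17.5 CPM (Psmc2) to 49.7 CPM (Psmc3) per kilobase. Psmc3, the highest, had 172, 116, 120 and 110 CPM in libraries 1 to 4, and Psmc2 had 119, 75.9, 81.5 and 76.6 CPM. All 6 were highest in library 1, by 1.28 to 1.52 times. The scaffold genes of the base did not share this. Psmd1 had 77.6, 84.0, 79.0 and 80.7 CPM and Psmd2 had 108, 104, 110 and 104 CPM, with coefficients of variation of 3.42% and 2.73%. The ubiquitin receptor gene Psmd4 had 93.5, 72.3, 72.7 and 71.5 CPM, with library 1 again high.

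Of the 8 lid genes, all were highest in library 1. Psmd8 had 119, 78.1, 86.1 and 78.7 CPM and was the highest per kilobase, at 29.6 CPM. Psmd14, which encodes the deubiquitinase of the lid, had 60.5, 37.8, 40.0 and 38.7 CPM and was the lowest in CPM. Psmd11 had 59.6, 54.3, 54.9 and 51.2 CPM and was the lowest per kilobase, at 8.62 CPM. Psmd3 was nearly level, at 87.4, 82.2, 79.6 and 84.4 CPM. The lid genes thus ranged from a library 1 excess of 1.07 times for Psmd3 to 1.58 times for Psmd6.

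Activators outside the inducible pair and the inhibitor varied little. Psme3, the nuclear PA28 gamma chain, had 69.8, 71.2, 79.0 and 72.8 CPM. Psme4, the PA200 activator, had 88.9, 101, 102 and 101 CPM, with library 1 below the other libraries. Psmf1, the PI31 protein first described as an inhibitor, had 25.7, 24.1, 26.2 and 25.2 CPM. Their coefficients of variation were 5.52%, 6.43% and 3.67%, against 14.1% to 33.0% for the inducible genes and a median of 16% over all genes tested.

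Assembly factor genes within the set were low, unlike the maturation factor gene Pomp, which lies outside the set and is described below. Those for the core particle were Psmg2 at 19.2 ± 5.32, Psmg1 at 10.8 ± 3.50, Psmg3 at 6.96 ± 2.54 and Psmg4 at 6.87 ± 1.27 CPM (SD, n = 4). The base chaperone genes were higher, with Psmd5 at 34.6 ± 4.95, Psmd10 at 22.7 ± 6.75 and Psmd9 at 21.2 ± 5.01 CPM. Psmd10, known also as gankyrin, had 32.3, 17.2, 22.2 and 18.9 CPM in libraries 1 to 4. Per kilobase Psmd10 was the highest of these assembly factor genes, at 15.4 CPM, and Psmg3 the lowest, at 2.41 CPM. Psmc3ip, which is no assembly factor and was matched by its symbol alone, had 2.77, 2.25, 1.89 and 2.34 CPM and the lowest mean of the expressed genes. Psma8, the alpha subunit of testis, had 6.49, 2.76, 3.79 and 2.98 CPM, also high in library 1. Psmb11, the catalytic subunit of thymic epithelium, had 1 count in library 2 and 0 in the others, under the floor of 3 counts (0.119 to 0.132 CPM). Psme2b had 8.49, 6.61, 7.97 and 6.63 CPM. Its counts were 0.262, 0.263, 0.244 and 0.257 of those of Psme2, and 30.7% of its words were unique, so reads of the pair could not be assigned with certainty.

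How far the genes differed between libraries was tested in edgeR, over all genes, as the fit of a negative binomial with 1 mean per gene. Of 49 members tested, 0 passed an adjusted p of 0.05 (Benjamini-Hochberg), where 3.28% of the 14112 genes did. At an unadjusted p under 0.05 there were 4, Psmb4, Psma2, Psma1 and Psmb10, against 9.57% of all genes. The smallest adjusted p was 0.324, for Psmb4 in edgeR. The quasi-likelihood variance test had 0 members at an unadjusted p under 0.05 (4.66% of all genes) and DESeq2 marked 0 as dispersion outliers (0.0354% of all genes). Without library 3 there were 15 members at an unadjusted p under 0.05 in edgeR, against 6.8% of all genes, and 0 at the adjusted threshold. This number was particular to leaving out library 3. Psmb4 alone stayed under the unadjusted threshold without library 2 and without library 4, and no member did without library 1. No library difference described for a single member thus passed the test, which does not show that the libraries did not differ.

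The direction of the differences was shared across the set. Library 1 was the highest for 37 of the 44 other expressed members and for 1 of the 5 inducible genes, where 34.2% of all tested genes were highest in library 1. With total-count scaling these were 39 and 2, against 35.4% of all genes. Library 1 lay at least 1.5 times above the mean of the other libraries for 19 of the 44 and 1 of the 5, against 9.47% of all genes. A gap test for 1 library standing apart marked 15 of the 49 members, against 8.4% of all genes, and 14 of them for a high library 1, against 3.55% of all genes. These shares are over genes of all lengths. In the shortest length class described below, which holds 37 of the 49 members, 63.0% of genes were highest in library 1. The median excess of library 1 on the log2(CPM + 0.5) scale was 0.56 for the 44 and 0.22 for the inducible genes, against 0.04 for all genes. Library 3 was the highest for 4 of 5 inducible genes (3 with total-count scaling) and 6 of 44 others (2 with total-count scaling), where 28.3% of all genes were highest in library 3 (18.8% with total-count scaling). From library 1 to library 3 the median inducible gene differed by 0.11 (log2). The median of the 44 others differed by -0.47 and that of all tested genes by -0.07.

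**Figure D4:**
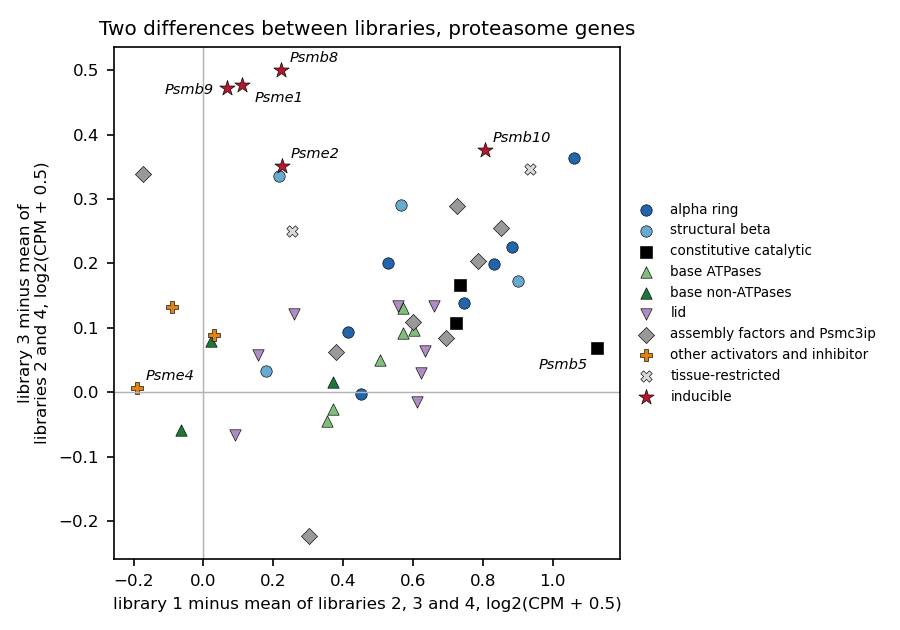
Each point is 1 of the 49 tested genes, by how far library 1 lies above the mean of the other libraries (horizontal) and library 3 above the mean of libraries 2 and 4 (vertical), both on the log2(CPM + 0.5) scale. The inducible genes (red stars) lie at 0.35 to 0.50 on the vertical axis, and Psmb10 lies far to the right of the other inducible genes.

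Libraries 2, 3 and 4 could be compared without library 1. Library 3 lay 1.28 to 1.42 times above the mean of libraries 2 and 4 for the inducible genes, with a median of 1.39, and above both libraries for all 5. For the 44 other expressed members the median was 1.07, and for all tested genes it was 1.02. For the 10 microglial markers it was 1.14, with a range of 1.08 to 1.27. Library 3 lay above both libraries for all 10 markers, and for 6373 of the 14112 tested genes. The part of cell content in this difference was not tested. A ratio of at least 1.2, with library 3 above both, was found in 5 of 5 inducible genes and 8 of 44 others, against 13.8% of all genes. The 8 were Psma5, Psma8, Psmb1, Psmb3, Psmd10, Psme2b, Psmg3 and Psmg4, at 1.20 to 1.32 times.

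The excess of library 1 followed transcript length across all genes. Among tested protein-coding genes, split by length of the principal transcript into 4 classes of nearly equal number, the shortest class (243 to 2011 bases, 3209 genes) had a median excess of 0.31 in library 1 (log2). The next classes had 0.09, -0.02 and -0.17. Of the 49 members, 37 fell in the shortest class, with a median of 0.57, and 31 of the 37 were highest in library 1, against 63.0% of all genes in that class. The 12 members with longer transcripts were mixed, from 0.875 to 1.85 times the mean of the other libraries, and 7 of them were highest in library 1. Psme4, Psme3, Psmd1, Psmd2, Psmf1 and Psmd3 lay at 1.07 times or less, whereas Psma2 lay at 1.85, Psmd9 at 1.53, Psmc6 at 1.49, Psma3 at 1.38, Psmd5 at 1.31 and Psmd11 at 1.12 times. Spearman's rho of the excess with length was -0.28 over the 49 members and -0.45 over 12836 protein-coding genes, which share the same 4 libraries. The principal transcripts of the inducible genes (962 to 1628 bases) and of Psmb5, Psmb6 and Psmb7 (798 to 1160 bases) all fall in the shortest class. For the difference of library 3 from libraries 2 and 4, the 4 classes had medians of 0.08, 0.04, 0.02 and -0.02. The part of RNA length or quality in the library differences was not tested.

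Genes that act with the proteasome but do not carry its symbol were described from a list of 17. Of these, 10 were highest in library 1 (34.2% of all genes), and 0 passed the spread test in edgeR (1, Sem1, without library 3, and 1 at an unadjusted p under 0.05). Pomp, the maturation factor of the core particle, had 192, 105, 133 and 113 CPM in libraries 1 to 4, and Sem1, a small lid subunit, had 99.8, 48.0, 57.8 and 45.3 CPM. Both followed the constitutive subunits in being highest in library 1. Nfe2l1, a transcription factor for proteasome genes, had 162, 201, 152 and 211 CPM, with libraries 1 and 3 low.

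Genes of antigen processing and of the interferon response were set beside the inducible genes. Of 13 antigen processing genes, 12 were highest in library 3 (28.3% of all genes), and 2 passed the spread test (H2-D1 and Nlrc5, 0 without library 1), against 3.28% of all genes. Under the quasi-likelihood variance test 0 of the 13 passed. The lead of library 3 was slight for Calr (1284 CPM, 1283 in library 2) and Canx (948 CPM, 938 in library 1). The order of such near-level genes depends on the scaling, and with total-count scaling 18.8% of all genes were highest in library 3. Tap1, the transporter chain that shares its upstream region with Psmb9, had 64.7, 102, 142 and 110 CPM, and Tap2 had 129, 117, 134 and 116 CPM. Nlrc5, the activator of MHC class I transcription, had 15.7, 42.0, 76.7 and 52.4 CPM, with an adjusted p of 0.000458 in edgeR (0.626 without library 1). Irf1, which induces immunoproteasome genes, had 82.0, 87.8, 91.1 and 72.4 CPM. Library 1 was thus lowest for Tap1 and Nlrc5, whereas it lay second to library 3 for Psmb9 and Psmb8. H2-D1, an MHC class I heavy chain, had 490, 1135, 1895 and 1287 CPM, also lowest in library 1 and highest in library 3.

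Of 18 interferon-stimulated genes, all 18 were highest in library 3 (28.3% of all genes) and 16 were lowest in library 1 (31% of all genes). In edgeR 10 passed the test (3.28% of all genes, and 4, 8, 7 and 8 of the 18 without library 1, 2, 3 and 4), where 0 of 5 inducible proteasome genes did. Under the quasi-likelihood variance test this contrast was absent, since 0 of the 18, 0 of the 5 and 0 of all genes passed. The transcription factor gene Irf7 had 21.2, 45.2, 116 and 72.1 CPM in libraries 1 to 4. The antiviral genes Ifit2 and Ifit3 had 18.1, 41.5, 102 and 64.4 CPM and 14.3, 22.1, 56.8 and 42.0 CPM. In all 3 library 3 was the highest, followed by libraries 4, 2 and 1. Among oligoadenylate synthetase family genes, Oas2 stood at 14, 52.4, 145 and 88.9 CPM, Oas3 at 1.71, 6.69, 19.3 and 9.17 CPM, and Oasl2 at 24, 53.0, 122 and 82.0 CPM. Mx1, an antiviral GTPase gene, had 13.9, 35.2, 77.9 and 52.1 CPM. These 4 genes had the same order of libraries, with library 3 from 5.08 to 11.3 times library 1. Ifi204 had 32.2, 58.0, 138 and 86.8 CPM, Rtp4 had 24.4, 34.9, 77.4 and 54.6 CPM, and Xaf1 had 22.7, 47.0, 76.3 and 60.0 CPM. In Psmb8, Psmb9, Psme1 and Psme2 library 3 was likewise the highest, but library 1 was second and the highest library was at most 1.48 times the lowest.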

How the data were processed

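The authors deposited raw counts per Ensembl gene for each of the 4 libraries. The build GRCm38 and the tools featureCounts 1.6.5, STAR 2.7.2b and bcl2fastq 2.20.0.422 are named in the submitters' processing notes. Annotation release, strand setting and treatment of multi-mapping reads: not given in the sources used here. Symbols, positions and lengths came from GENCODE M21, which matched 55230 of 55471 identifiers. CPM used TMM over all rows in edgeR 4.0.16 (R 4.3.3), with factors of 1.00, 1.01, 0.963 and 1.03. Spread was tested as the residual deviance of an intercept-only negative binomial fit with trended dispersion, over 14112 genes kept by filterByExpr. The alternative set each quasi-likelihood variance against its prior, and DESeq2 1.42.0 gave a further call. Checked on simulated counts, the test missed most 2-fold changes of a single library. Log values used a pseudocount of 0.5 CPM. Uniqueness is the share of 50-base words of the longest transcript found in no transcript of another gene. The gene choice, the lists and the comparison of libraries 1 and 3 were made with earlier results of these data known. Values in every library are given, by rule, for the inducible and constitutive catalytic genes, the 3 highest and lowest members by mean CPM, the highest and lowest of each role per kilobase, tissue-restricted members, certain outside genes, of which 1 is not reported here, and listed outside genes past the test. Further genes were chosen after their values were seen. Alternatives were other scalings, filters, lengths and left-out libraries. Scaling over filtered genes and the principal-transcript lengths were added after seeing the data.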

Additional observations from a re-analysis of the deposited data

Results flagged for a closer look

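A gap test was applied to the 4 libraries of each of 49 expressed members, which asks whether 1 library is separated from the nearest of the others by more than Dixon's 95% critical share of the whole range. Chance passes about 1 in 20 groups, and 8.4% of all 14112 tested genes passed, 3.55% for a high library 1. It marked 15 members, 14 of them for a high library 1: Psma3 at 21.7, Psmb4 at 143, Psmb5 at 22.9, Psmb6 at 94.8, Psmc1 at 66.0, Psmc2 at 119, Psmc4 at 81.3, Psmc5 at 73.6, Psmd13 at 75.7, Psmd14 at 60.5, Psmd4 at 93.5, Psmd5 at 42.0, Psmd7 at 75.3 and Psmg2 at 27.1 CPM in library 1. The other was Psme4, the longest transcript of the set, for a low library 1, at 88.9 CPM against a median of 101 CPM. None of the 5 inducible genes was among the 15. The members share their libraries, so these are not 15 separate observations.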

How the results depend on the processing

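No paired analysis was possible because the libraries form 1 group. The count of 463 genes past the spread test, which is the background of the members' count, was 106 to 425 when 1 library was left out (lowest without library 3), 0 with the quasi-likelihood variance test and 5 with the DESeq2 outlier call. The members' count was 0 under each of the 10 alternatives run. Over all single members, adjusted p-values were 0.118 to 1.00 under the alternatives, and none of 343 passed the threshold. The 350 alternative mean levels moved by less than the SD between libraries. Scaling aside, this was fixed beforehand where 1 library was left out, since that cannot move a mean so far. Leaving out 1 library changed an expressed member's mean by factors of 0.762 to 1.11, lowest for Psmb5 without library 1. The mean pair ratios (log2) kept their sign under every length, pseudocount and left-out library run. For the left-out libraries this was fixed beforehand, since each pair had the same sign in 4 of 4 libraries. Leaving out 1 library gave 1.2 to 1.6 for Psmb8 to Psmb5, -1.37 to -1.07 for Psmb9 to Psmb6 and 1.24 to 1.33 for Psmb10 to Psmb7, and a pseudocount of 0.1 gave 1.42, -1.24 and 1.28. The median difference of library 3 from library 1 was 0.05 to 0.17 (log2) for the inducible genes and -0.53 to -0.41 for the other expressed members under 4 other scalings. Detection did not limit any member but Psmb11. Uniqueness limits Psmb5, Psme2, Psme2b and Psma5.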
